A study of Mus musculus with 24 samples.

Results

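The Hox genes are the 39 homeobox genes of the Hoxa, Hoxb, Hoxc and Hoxd clusters, and they were taken as every gene of both expression tables whose name is Hox, a cluster letter from a to d and a paralogue number, 39 of the 41710 genes listed. The measurements were poly-A RNA sequencing libraries of mouse embryonic fibroblasts (MEFs), the mixed connective tissue cells that grow out of dissociated mid-gestation embryos, in 4 genotypes and at 2 stages, with 3 libraries per group. Every line carried floxed alleles of Myc, of Mlx or of both and 2 copies of a CreER transgene (a Cre recombinase switched on by 4-hydroxytamoxifen, 4OHT) under the ROSA26 promoter, which is active in most cell types. WT cells kept their loci intact and received the ethanol vehicle, whereas MycKO, MlxKO and double-knockout (DKO) cells had the loci excised by 500 nM 4OHT, for at least 7 days in primary cells and for 10 days in immortalized cells. The drug was withdrawn for at least 3 days before study. Immortalized cells came from the floxed lines transduced with a lentivirus encoding SV40 T-antigen and selected in blasticidin before excision, and primary RNA was taken on day 10. Each line came from embryos of days 14 to 16 that were pooled, at least 6 per pool. The 3 knockout genotypes thus came from different floxed lines, while WT cells were the unexcised cells of such lines, and which of the lines supplied the WT libraries is not given in the sources used here. Between a knockout and WT cells of another line, a difference of genotype and a difference of pool cannot be told apart. The libraries of a group came from triplicate RNA sets, and p-values measured the spread between these, which may be technical.

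Hox genes encode transcription factors that bind DNA through a homeodomain. Genes with the same paralogue number in different clusters descend from one ancestral gene, and along each cluster the low numbers are used anteriorly and the high numbers posteriorly and distally in the embryo, a property called collinearity. In the limb, Hoxa9 to Hoxa13 and Hoxd9 to Hoxd13 pattern the segments from shoulder or hip to digits, with Hoxa13 and Hoxd13 marking the hand and foot plate and the genital tubercle. Genes of the middle of the Hoxb and Hoxc clusters mark the trunk, and Hoxc10 to Hoxc13 mark the lumbosacral body and hindlimb side. Fibroblasts in culture keep much of the Hox pattern of the site from which they were taken. Hox proteins bind DNA with partners of the TALE class (Pbx, Meis and Pknox), Polycomb and Trithorax proteins hold the clusters silent or active, and retinoic acid induces the anterior genes. Myc and the Mlx partners bind the E-box CACGTG.

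In the mouse genome build GRCm39 the Hoxa cluster lay at chr6:52132570-52237822, Hoxb at chr11:96085106-96259082, Hoxc at chr15:102829538-102945278 and Hoxd at chr2:74498654-74595486, and these spans held 11, 10, 9 and 9 of the genes. The homeobox, 180 bases long in each of the 39, was compared between members, because the results below differed by cluster within a paralogue number. Genes of the same number in different clusters shared a median of 80.56% of homeobox bases over 42 pairs, against 61.67% over 172 pairs of the same cluster. The 51 bases that encode the DNA-recognition helix are given 5′ to 3′ for the 4 members of paralogue group 13, in which Hoxa13 and Hoxd13 moved against Hoxc13 and Hoxb13 was too low to test, and for Hoxc6 and Hoxc8 with their Hoxb paralogues, since the Hoxc genes showed the largest rise seen. Capitals mark the invariant core of that helix.
Hoxa13: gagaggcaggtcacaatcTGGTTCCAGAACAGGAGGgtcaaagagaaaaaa
Hoxb13: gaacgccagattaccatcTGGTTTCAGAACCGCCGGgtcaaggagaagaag
Hoxc13: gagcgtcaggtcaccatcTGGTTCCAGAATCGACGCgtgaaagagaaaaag
Hoxd13: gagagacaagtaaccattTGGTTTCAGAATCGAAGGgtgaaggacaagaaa
Hoxb6: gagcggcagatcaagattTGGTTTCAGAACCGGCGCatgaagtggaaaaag
Hoxc6: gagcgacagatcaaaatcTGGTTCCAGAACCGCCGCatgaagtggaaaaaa
Hoxb8: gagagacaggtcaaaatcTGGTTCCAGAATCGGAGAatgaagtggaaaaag
Hoxc8: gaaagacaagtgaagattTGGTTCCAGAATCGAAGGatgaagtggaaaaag
Within group 13, Hoxa13 and Hoxd13 were identical at 73.89% of homeobox bases and Hoxc13 and Hoxd13 at 75%, while Hoxc6 and Hoxd13 were identical at 50%.

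The letters CACGTG, which read the same on both strands, occurred in the 250 bases upstream of the annotated start of 9 of the 39 Hox genes (23.1%) and of 1359 of the 21590 protein-coding genes of the tables (6.29%). Hoxa4, Hoxa7, Hoxb5, Hoxc11, Hoxc13, Hoxd1 and Hoxd10 were among them. Hoxc13, which held 2 copies, is shown beside Hoxd13, the member with the highest level in WT cells, which held none. Capitals mark the CACGTG.
Hoxc13 promoter, chr15:102829288-102829537, plus strand: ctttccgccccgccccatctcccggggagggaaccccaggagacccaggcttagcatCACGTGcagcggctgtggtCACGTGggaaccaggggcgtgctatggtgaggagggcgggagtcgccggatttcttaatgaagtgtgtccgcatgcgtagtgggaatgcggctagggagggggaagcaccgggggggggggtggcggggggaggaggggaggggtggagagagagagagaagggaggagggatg
Hoxd13 promoter, chr2:74498404-74498653, plus strand: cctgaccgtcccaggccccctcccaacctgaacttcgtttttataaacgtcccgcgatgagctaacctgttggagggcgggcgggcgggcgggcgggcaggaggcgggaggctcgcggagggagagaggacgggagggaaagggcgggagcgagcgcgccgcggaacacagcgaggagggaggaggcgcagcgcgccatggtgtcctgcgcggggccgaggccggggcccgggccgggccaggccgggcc
A match is a description of the letters and not a binding site. No binding was measured in these data.

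The 24 libraries held between 15986856 and 20966163 reads on genes, and 3 reads corresponded to between 0.145 and 0.196 units of CPM (reads per gene scaled to a common library size). Genes were tested when at least 3 of the 12 libraries of a table reached 1 CPM. On that rule 35 Hox genes were tested in primary cells and 33 in immortalized cells, where Hoxc4, Hoxc5, Hoxc6, Hoxc8, Hoxc9 and Hoxd4 would not have passed without the MycKO libraries. In primary cells Hoxc12 would not have passed without the DKO libraries. A gene that enters in this way is bound to be high in that genotype, so its values are given as a description and the counts are repeated without these genes. Hoxb1 had no read in any library, which allows at most 3 reads per library. Hoxb13, Hoxd1 and Hoxa6 were untested at both stages, and Hoxa2 and Hoxd3 in immortalized cells only. Of the targeted genes, Myc averaged 93.9 CPM in primary WT, 26.5 in MycKO and 21.5 in DKO cells, and Mlx averaged 23.7 CPM in WT, 13.5 in MlxKO and 11.2 in DKO cells. In immortalized cells Myc averaged 88.5 CPM in WT, 12.7 in MycKO and 6.01 in DKO cells, and Mlx 23.0 CPM in WT, 13.8 in MlxKO and 16.8 in DKO cells. The Mlx change in immortalized DKO cells did not pass with all libraries (log2 change -0.44, adjusted p = 0.0694, limma). It passed without WT library 4, described below (log2 change -0.52, adjusted p = 0.0339, limma). All 10 fibroblast markers had reads in every group, and erythroid markers were at or near 0.

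Library 4 of immortalized WT stood apart from WT libraries 2 and 3. Whether it came from the same line as these, from another line or from an exchanged sample is not given in the sources used here and was not tested. The forelimb marker Tbx5 stood at 0, 0.166 and 25.6 CPM in WT libraries 2, 3 and 4. Tbx4, a hindlimb gene, stood at 43.0, 46.2 and 7.79 CPM, and Pitx1, which acts upstream of Tbx4, at 33.1, 33.8 and 7.91 CPM. Transcripts of the sex chromosomes split the same way. The Y-linked Ddx3y was at 6.56, 4.61 and 106.3 CPM and Xist, the RNA that coats the inactive X chromosome, at 2114, 1574 and 549.7 CPM. Myc itself was at 48.1, 39.9 and 177.5 CPM. Among the 39 Hox genes, library 4 was above both other WT libraries for 16, which included 8 of the 10 Hoxb and 7 of the 9 Hoxc genes, and below both for 18, which included 9 of the 11 Hoxa and 7 of the 9 Hoxd genes. Counts of Hox calls and log2 changes of the named Hox genes in immortalized cells are therefore given with and without that library. The filter was applied anew without it, and Hoxb2, Hoxb3 and Hoxb7 then also passed only with the MycKO libraries.

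**Figure D1:**
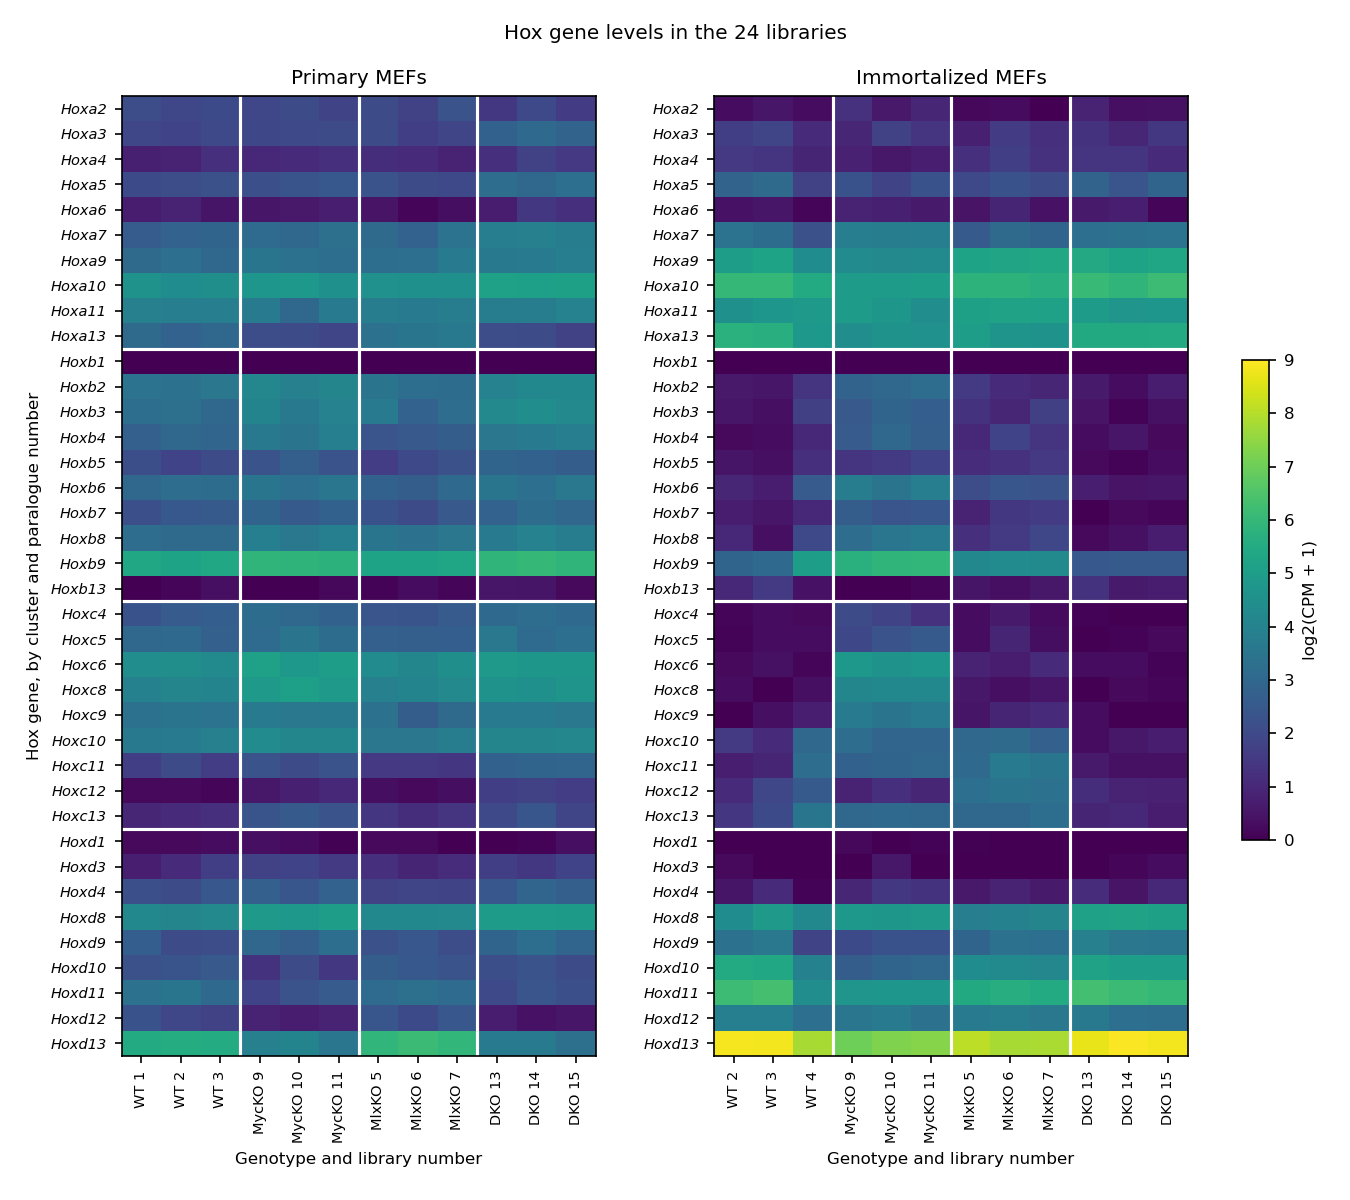
Level of 38 of the 39 Hox genes (rows, by cluster and paralogue number) in each of the 24 libraries (columns, named by genotype and library number), as log2(CPM + 1), with a panel for primary and a panel for immortalized MEFs, which were normalized separately. Hoxd13 is the brightest row in both WT groups, Hoxc4 to Hoxc9 are dark in all immortalized groups except MycKO, and immortalized WT library 4 differs from WT libraries 2 and 3 in all clusters.

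Primary WT cells used genes of all 4 clusters. The summed Hox level was 317.4 ± 2.38 CPM (SD, n = 3), of which Hoxa supplied 21.9%, Hoxb 27.5%, Hoxc 23.0% and Hoxd 27.7%. Per kilobase of exon, Hoxd13 was highest at 18.2 CPM per kb, and it was followed by Hoxb9, a trunk gene, at 14.4, Hoxc6 at 7.94 and Hoxa10 at 6.45. In MycKO and DKO cells the leading gene was Hoxb9, at 20.8 and 22 CPM per kb, and in MlxKO cells it was Hoxd13 at 25.5. In a bulk sample, fewer cells of a type and less RNA per cell cannot be told apart.

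Loss of Myc in primary cells was accompanied by a fall of the distal limb genes and a rise of most others. Of the 35 tested Hox genes, 17 rose (48.6%), where 20.4% of all 13101 genes tested rose, and 6 fell (17.1%), where 21.9% of all genes fell (limma, Benjamini-Hochberg adjusted p under 0.05). The median log2 fold change, on the log2(CPM + 1) scale used throughout, was 0.39 for the Hox genes and 0.00 for all genes. Without Hoxc12, 16 of 34 rose (47.1%) and 6 fell (17.6%). All 6 that fell belonged to the 16 genes numbered 9 to 13, and they were Hoxd13, Hoxd12, Hoxd11, Hoxd10, Hoxa13 and Hoxa11.

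Hoxd13 was at 44.4, 46.2 and 44.9 CPM in the primary WT libraries and at 14.2, 15.5 and 10.6 CPM in the MycKO libraries. The groups did not overlap, and the log2 change was a fall by 1.69 (SE 0.122, adjusted p = 2.68e-08, limma). Hoxd12, its neighbour in the distal limb, was at 3.84, 2.77 and 2.40 CPM in WT and at 0.832, 0.654 and 0.847 CPM in MycKO libraries, a fall by 1.16. Hoxa13 was at 7.62, 6.08 and 7.30 CPM in WT and at 3.38, 3.14 and 2.69 CPM in MycKO cells, and fell by 0.97. Along the Hoxd cluster the change stepped from a rise to a fall: Hoxd8 rose by 0.72 and Hoxd9 by 0.67, and Hoxd10, Hoxd11 and Hoxd12 fell by 0.73, 1.07 and 1.16. The group-13 genes did not move as one, because Hoxc13 rose by 1.31 (SE 0.163, adjusted p = 7.59e-06, limma), from 0.959, 1.14 and 1.34 CPM in WT to 4.05, 4.91 and 3.99 CPM in MycKO libraries.

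The genes that rose in primary MycKO cells came from all 4 clusters. In Hoxb, 5 of the 8 tested genes rose and none fell, and in Hoxc 7 of 9 rose and none fell, or 6 of 8 without Hoxc12. In Hoxd the 4 tested genes numbered below 10 rose, namely Hoxd3, Hoxd4, Hoxd8 and Hoxd9, and the other 4 fell. Hoxc8, a thoracic gene, rose from 14.5, 16.2 and 15.8 CPM in WT to 27.3, 33.1 and 27.6 CPM, a log2 change of 0.87. Hoxb9 stood at 40.4, 36.6 and 39.9 CPM in WT and at 57.8, 56.5 and 54.5 CPM in MycKO cells and rose by 0.52. In Hoxa, 1 of 10 tested genes rose (Hoxa7) and 2 fell. Summed over the cluster, Hoxd fell from 27.7% to 16.9% of the Hox CPM, and Hoxb went from 27.5% to 34.5%.

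In primary DKO cells distal limb genes fell as well, and more of the other genes rose. Of 35 tested Hox genes 24 rose (68.6%), where 24% of all genes rose, and 4 fell (11.4%), where 25.5% of all genes fell, and the median log2 fold change was 0.58, against 0.00 over all genes. Without Hoxc12, 23 of 34 rose (67.6%). The MycKO and DKO comparisons share the WT libraries, so their values are set side by side and not counted as independent. Hoxd13 was at 11.9, 11.8 and 9.04 CPM in the DKO libraries, a fall by 1.96 (SE 0.122, adjusted p = 3.31e-09, limma). Hoxd12 fell by 1.41, Hoxd11 by 1.12 and Hoxa13 by 1.00. Hoxd10, which fell in MycKO cells, stood at 3.53, 3.96 and 3.11 CPM in DKO against 3.67, 4.02 and 4.73 CPM in WT libraries and did not pass the test (log2 change -0.18, adjusted p = 0.435, limma). Hoxc12, which entered the test through the DKO libraries, was at 0.169, 0.163 and 0.117 CPM in WT, which is 8 reads in all, and at 2.20, 2.38 and 2.07 CPM in DKO libraries, a log2 change of 1.48. Hoxc11 stood at 2.20, 3.20 and 2.10 CPM in WT and at 5.93, 6.50 and 6.68 CPM in DKO libraries, a rise of 1.09.

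Several anterior and central Hoxa genes rose in DKO cells. Hoxa3, Hoxa5 and Hoxa7, active in neck and upper trunk, rose by 1.01, 1.05 and 1.06 in DKO cells, and Hoxa10 rose by 0.64, from 22.9, 19.7 and 21.4 CPM to 34.1, 33.0 and 33.7 CPM. Hoxa3 overlaps Hoxa4, Hoxa5 and Hoxa6 on the same strand in the annotation, and 6.4% of its 50-base stretches also occur in other gene models, so its own count is uncertain. In MycKO cells Hoxa10 was at 25.3, 26.7 and 21.9 CPM, with a log2 change of 0.20 that did not pass the test (adjusted p = 0.0782, limma). The difference between DKO and MycKO cells was not itself tested. A separate test, the Myc-by-Mlx interaction, takes the DKO minus MycKO change less the MlxKO minus WT change. In primary cells it was positive for 5 of the 35 tested Hox genes, where 7.47% of all genes were positive, and negative for 1, where 6.07% were negative. The positive ones were Hoxa3 (0.92), Hoxa5 (0.84), Hoxa10 (0.39), Hoxc11 (0.97) and, as the gene that entered through DKO, Hoxc12 (0.78), and the negative one was Hoxd13 (-0.75, adjusted p = 0.00709, limma).

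Read by paralogue number, the primary MycKO and DKO changes turned at numbers 10 to 13. All 3 genes numbered 8 rose in both genotypes, and no gene numbered 1 to 9 fell in either. Of the 11 tested genes numbered 10 to 13, 4 rose and 6 fell in MycKO and 5 rose and 4 fell in DKO cells, and within these numbers the Hoxc genes, Hoxc12 among them, rose in both whereas those that fell were of Hoxa and Hoxd. The 5 distal genes Hoxa13 and Hoxd10 to Hoxd13 together summed to 68.3 ± 1.31 CPM in WT, 23.3 ± 2.92 in MycKO, 90.6 ± 4.66 in MlxKO and 21.5 ± 2.59 CPM in DKO cells (SD, n = 3). Hoxb2 to Hoxb9 together summed to 87.1 ± 1.46, 131.0 ± 7.39, 82.7 ± 5.48 and 143.3 ± 5.92 CPM in the same order.

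MlxKO cells had few calls. Of 35 tested Hox genes 2 rose, where 3.75% of all genes rose, and none fell, where 5.14% of all genes fell, while 4 higher and 5 lower genes had an unadjusted p under 0.05 in limma. The pair that rose were the digit-plate genes. Hoxd13 was at 59.7, 68.7 and 61.8 CPM, a rise of 0.48 (SE 0.122, adjusted p = 0.0211, limma), and Hoxa13 was at 9.22, 10.3 and 11.6 CPM, a rise of 0.51. Neither passed without WT library 1 or WT library 2, nor without MlxKO library 6 or 7, when limma called no Hox gene and between 7 and 9 had an unadjusted p under 0.05. Without MycKO library 10, which enters only the estimate of the spread, 4 were called. With edgeR and with DESeq2 on the recovered reads, 2 were called.

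**Figure D2:**
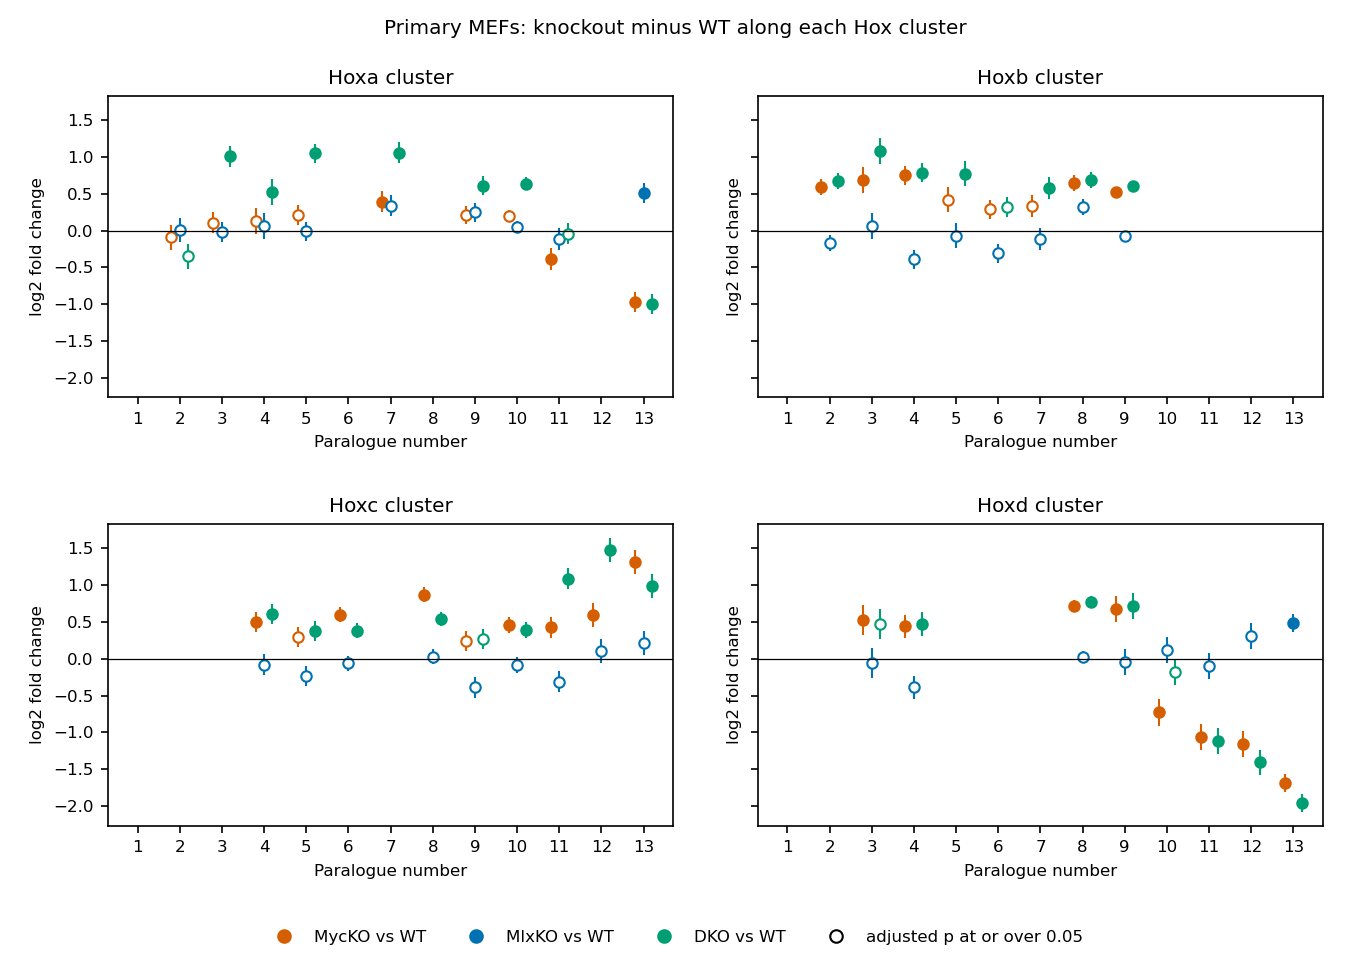
Log2 fold change of the tested Hox genes plotted in primary MEFs, knockout minus WT (y axis, on log2(CPM + 1), bars are SE), against paralogue number (x axis) with a panel per cluster and colours for MycKO, MlxKO and DKO. Filled points passed an adjusted p of 0.05, and the MycKO and DKO points run from above 0 at Hoxd8 and Hoxd9 to -1.69 and -1.96 at Hoxd13, while all Hoxb and Hoxc points of these genotypes lie above 0.

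Other positional genes moved in both directions in primary cells. Evx2, the homeobox gene next to Hoxd13, was at 1.24, 2.66 and 1.99 CPM in WT, 0.776, 0.458 and 1.15 CPM in MycKO and 0.562, 0.634 and 0.576 CPM in DKO libraries, and fell in both. Tbx4 averaged 14.3 CPM in WT, 18.4 in MlxKO, 7.63 in DKO and 5.47 in MycKO cells, and fell in MycKO and DKO cells. Pitx1 fell in MycKO cells, from 11.8 to 6.57 CPM. Tbx5 averaged 5.78, 5.62, 7.63 and 7.41 CPM in WT, MycKO, MlxKO and DKO cells and passed the test in none. Of 16 limb and trunk patterning genes tested, 6 rose (37.5%, beside 20.4% of all genes) and 2 fell (12.5%, beside 21.9%) in MycKO cells. In MlxKO cells 2 rose and 2 fell (12.5% each, beside 3.75% and 5.14%), and in DKO cells 7 rose (43.8%, beside 24%) and 1 fell (6.25%, beside 25.5%). Shox2, a proximal limb gene, rose from 28.3 CPM in WT to 46.8 CPM with Myc lost and 74.6 CPM with both lost.

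Of the 9 TALE partners tested, 3 rose in primary MycKO cells (Meis1 and Meis3 among them), none passed in MlxKO and 5 rose in DKO cells, with none falling. These rises are 33.3% and 55.6% of the list, beside 20.4% and 24% of all genes. Meis1 averaged 25.2 CPM in WT, 35.1 CPM in DKO and 35.2 CPM in MycKO cells. Of 24 Polycomb and Trithorax genes, 3 rose (12.5%, beside 20.4% of all genes) and 5 fell (20.8%, beside 21.9%) in MycKO cells. None passed in MlxKO cells, and 10 rose (41.7%, beside 24%) and 5 fell (20.8%, beside 25.5%) in DKO cells. Ezh2, the methyltransferase of Polycomb complex 2, averaged 37.8 CPM in WT, 17.6 CPM in DKO and 22 CPM in MycKO cells, and its partner Suz12 averaged 85.4, 55.1 and 58.3 CPM. Of 13 retinoic acid genes tested, 5 rose (38.5%, beside 20.4% of all genes) and 2 fell (15.4%, beside 21.9%) in MycKO cells. In MlxKO cells 2 fell (15.4%, beside 5.14%), and in DKO cells 5 rose (38.5%, beside 24%) and 2 fell (15.4%, beside 25.5%). Of 44 other RNAs annotated within the clusters, 7 were tested. In MycKO cells 2 rose and 2 fell (28.6% each, beside 20.4% and 21.9% of all genes), and in DKO cells 3 rose (42.9%, beside 24%) and none fell (beside 25.5%). Hoxa11os, the antisense RNA of Hoxa11, averaged 4.51 CPM in WT and 2.44 CPM in MycKO cells and fell, as Hoxa11 did by 0.39. How the counting used strand is not given in the sources used here.

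Markers of fibroblasts and of other cells differed between the primary groups. The fibroblast markers summed to between 34610 and 37180 CPM in WT and 44120 and 46070 in MycKO libraries. In MlxKO libraries they summed to between 37990 and 40030 and in DKO libraries to between 46680 and 47030 CPM. Of the 10, 7 rose and 1 fell in MycKO and in DKO cells (70% rising, beside 20.4% and 24% of all genes), and 3 rose and 1 fell in MlxKO cells (30%, beside 3.75%). The 8 macrophage markers all fell in MycKO and in DKO cells, and their summed level lay between 270 and 522.2 CPM in WT, 47.9 and 70.6 in MycKO, 300.1 and 372.5 in MlxKO and 99.6 and 219.3 CPM in DKO libraries. The summed level of 6 cartilage markers lay between 629.6 and 813.2 CPM in WT and between 180.4 and 264.3 CPM in the 9 knockout libraries, and most of it was Col10a1, a collagen of hypertrophic cartilage, at a mean of 583 CPM in WT, 90.9 in MycKO, 139.9 in MlxKO and 44.8 CPM in DKO cells. Col2a1, the main cartilage collagen, fell in MycKO cells, from 65.3 to 41.3 CPM, and rose in DKO cells, to 106 CPM. Acan rose in MycKO cells, from 18.5 to 25.2 CPM, and Sox9 passed in no comparison with WT. Muscle markers summed to between 76.6 and 85.7 CPM in WT, 28.1 and 32.7 in MycKO, 32.1 and 43.0 in MlxKO and 76.8 and 83.2 CPM in DKO libraries, with Myf5 and Ckm at 0. Nearly all of that sum was Des, the only muscle marker tested, at a mean of 81.5 CPM in WT, 30.7 in MycKO, 36.8 in MlxKO and 79.0 CPM in DKO cells. Epithelial markers summed to between 16.5 and 19.9 CPM in WT and between 1.95 and 4.83 CPM in the knockout libraries, and endothelial markers to between 13.9 and 15.5 CPM in WT and between 3.52 and 8.83 CPM in the knockout libraries. Neural and neural crest markers summed to between 57.3 and 67.0 CPM in WT, 85.5 and 102.2 in MycKO, 47.8 and 56.9 in MlxKO and 66.2 and 68.0 CPM in DKO libraries. Of these, Sox10 and Tubb3 rose in MycKO cells. Xist averaged 168.5, 117.1, 156.4 and 539.5 CPM in WT, MycKO, MlxKO and DKO cells and Ddx3y 53.2, 75.2, 58.7 and 10.5 CPM. The part of these differences in the Hox results was not tested.

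**Figure D3:**
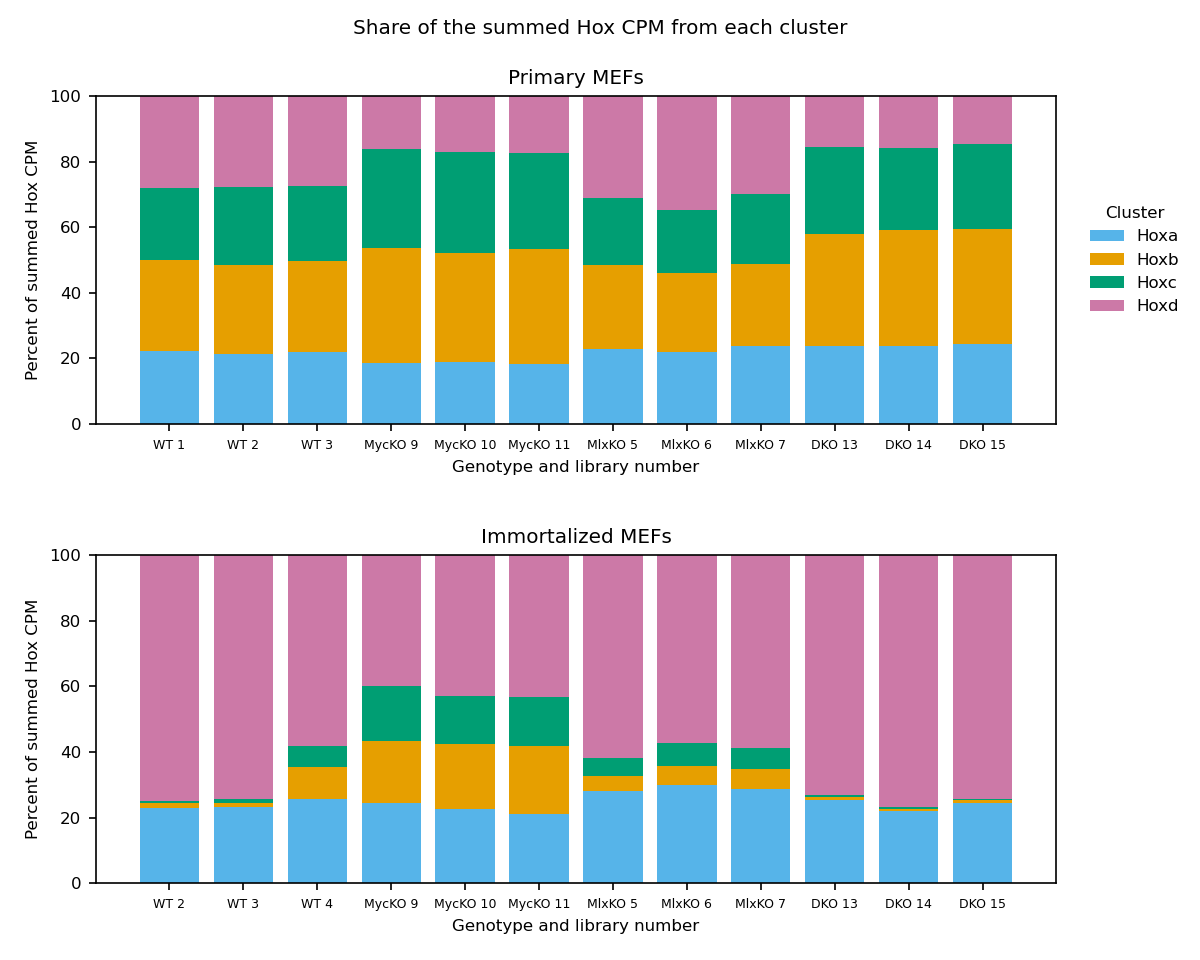
Percent of the summed Hox CPM from each cluster (y axis, 0 to 100) in each library (x axis, genotype and library number), with primary MEFs above and immortalized MEFs below. Hoxd supplies less in primary MycKO and DKO than in WT and MlxKO libraries, and in immortalized cells Hoxb and Hoxc are near 0 in WT libraries 2 and 3 and in DKO libraries but not in WT library 4, MycKO or MlxKO libraries.

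Hoxa13 and Hoxd10 to Hoxd13 supplied 70.9% of the Hox CPM in immortalized WT, 74.3% in DKO, 59.7% in MlxKO and 40.2% in MycKO cells. WT libraries 2, 3 and 4 stood at 77.7%, 75.6% and 59.5%. All genes numbered 9 to 13 together supplied 93.1% in WT, 92.7% in DKO, 92.1% in MlxKO and 72.0% in MycKO cells, and Hoxd13 alone 51.8%, 55.4%, 42.1% and 28.0%. In primary cells genes 9 to 13 supplied 56.8%, 45.6%, 59.9% and 44.5% in the same order. The stages were normalized in separate tables, and the difference between them was not tested. Per kilobase of exon, Hoxd13 led in all 4 immortalized genotypes, at 184.3 CPM per kb in DKO, 155.1 in WT, 98.6 in MlxKO and 59.9 in MycKO cells. In MycKO cells Hoxb9 was next with 21.1 CPM per kb, a place that Hoxd10 held in WT and Hoxa10 in MlxKO and DKO cells.

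Distance over the 39 genes, as the mean absolute difference in log2(CPM + 1) between a pair of libraries, put the WT libraries on different sides. WT libraries 2 and 3 differed from each other by 0.23, from the DKO libraries by 0.29 each on average and from WT library 4 by 0.82 and 0.87. WT library 4 differed from the MlxKO libraries by 0.38, from the MycKO libraries by 0.97 and from the DKO libraries by 0.94. Replicates within MycKO, MlxKO and DKO differed by between 0.16 and 0.28. In primary cells the WT libraries differed from each other by between 0.16 and 0.20 and from the MycKO libraries by between 0.45 and 0.57.

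In immortalized MycKO cells all tested Hoxb genes were higher than in WT, and Hoxa13, Hoxd10 and Hoxd13 were lower. Of 33 tested Hox genes 17 rose (51.5%), where 24.4% of all 12880 genes tested rose, and 7 fell (21.2%), where 23.5% of all genes fell, and the median was 0.74 against 0.00 over all genes. Without WT library 4, 17 rose, 16 of them the same genes, where 27.3% of all genes rose, and 9 fell, 6 of them the same, where 26.7% of all genes fell. Without the 6 genes that entered through MycKO, 11 of 27 rose (40.7%) and 7 fell (25.9%), with a median of 0.34, and without WT library 4 as well 12 rose (44.4%) and 9 fell (33.3%). All 8 tested Hoxb genes rose in both fits, but without library 4 Hoxb2, Hoxb3 and Hoxb7 passed the filter only with the MycKO libraries. The counts without library 4 still hold these genes, whose values in that fit are a description. Of the 4 tested Hoxc genes that did not depend on MycKO, 2 rose and 1 fell, or 3 rose and none fell without library 4.

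Hoxc6, a gene of the lower neck and upper trunk, was at 0.176, 0.333 and 0.122 CPM in WT libraries 2, 3 and 4, which is 11 reads in all, and at 26.6, 22.9 and 25.3 CPM in the MycKO libraries. As described, it entered the test through the MycKO libraries. The log2 change was 4.42 and 4.37 without WT library 4, and the ratio of mean CPM was 118.6. Hoxc6 reached 0.865 ± 0.261 CPM (SD, n = 3) in MlxKO and 0.17 ± 0.0991 CPM (SD, n = 3) in DKO cells. Hoxc8, its thoracic neighbour, was at 0.234, 0 and 0.304 CPM in WT, 9 reads in all, and at 16.7, 17.6 and 17.3 CPM in MycKO libraries, with a log2 change of 3.96, or 4.03 without library 4, and it too entered through MycKO. Together Hoxc4 to Hoxc9 summed to 59.8 ± 2.45 CPM (SD, n = 3) in MycKO cells, against 1.05 in WT, 2.90 in MlxKO and 0.432 CPM in DKO cells. WT libraries 2, 3 and 4 held 0.586, 1.05 and 1.52 CPM, all far under the MycKO level. Hoxc5 overlaps Hoxc6, Hoxc8, Hoxc9 and Hoxc10 in the annotation, and its own count is uncertain.

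Hoxb9 was the highest Hoxb gene. It stood at 6.38, 7.44 and 32.1 CPM in WT libraries 2, 3 and 4 and at 51.3, 58.2 and 61.5 CPM in MycKO libraries, with a log2 change of 2.18, or 2.87 without WT library 4. The other Hoxb genes from Hoxb2 to Hoxb8 rose by between 0.87 (Hoxb5) and 2.36 (Hoxb8), or by between 1.14 (Hoxb5) and 2.86 (Hoxb6) without library 4. Library 4 lay between the other WT libraries and the MycKO libraries for Hoxb9, and no WT library reached the lowest MycKO value. Hoxb2 to Hoxb9 together summed to 10.6, 10.0 and 47.4 CPM in WT libraries 2, 3 and 4 and to 95.2, 105.5 and 113.4 CPM in MycKO libraries.

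Of the 7 falls in immortalized MycKO cells, 5 were among the 11 tested genes numbered 10 to 13 and 2 among the 22 numbered 1 to 9. Hoxd10 was at 44.7, 41.4 and 14.5 CPM in WT libraries 2, 3 and 4 and at 5.27, 6.53 and 7.26 CPM in MycKO libraries, a fall by 2.09 (SE 0.314, adjusted p = 0.000236, limma) and by 2.59 without library 4. Hoxd13 was at 468.7, 461.3 and 225.5 CPM in WT and at 129.8, 153.3 and 162.9 CPM in MycKO libraries and fell by 1.30, or by 1.65 without library 4. Hoxa13 fell by 0.88, from 52.9, 50.8 and 26.7 CPM to 20.3, 23.9 and 22.4 CPM, or by 1.19 without library 4. Hoxa10 was at 62.8, 63.4 and 44.3 CPM in WT and at 30.6, 30.6 and 31.9 CPM in MycKO libraries and fell by 0.83, or by 1.00 without library 4. Hoxa4, Hoxa9 and Hoxc12 fell too, by 0.55, 0.60 and 0.83, and of these Hoxc12 did not pass without library 4 (log2 change -0.49, adjusted p = 0.0733, limma). Without it Hoxa4 fell by 0.71 and Hoxa9 by 0.85, and Hoxd9, Hoxd11 and Hoxa5 fell only in that fit, by 1.32, 1.53 and 0.86.

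**Figure D4:**
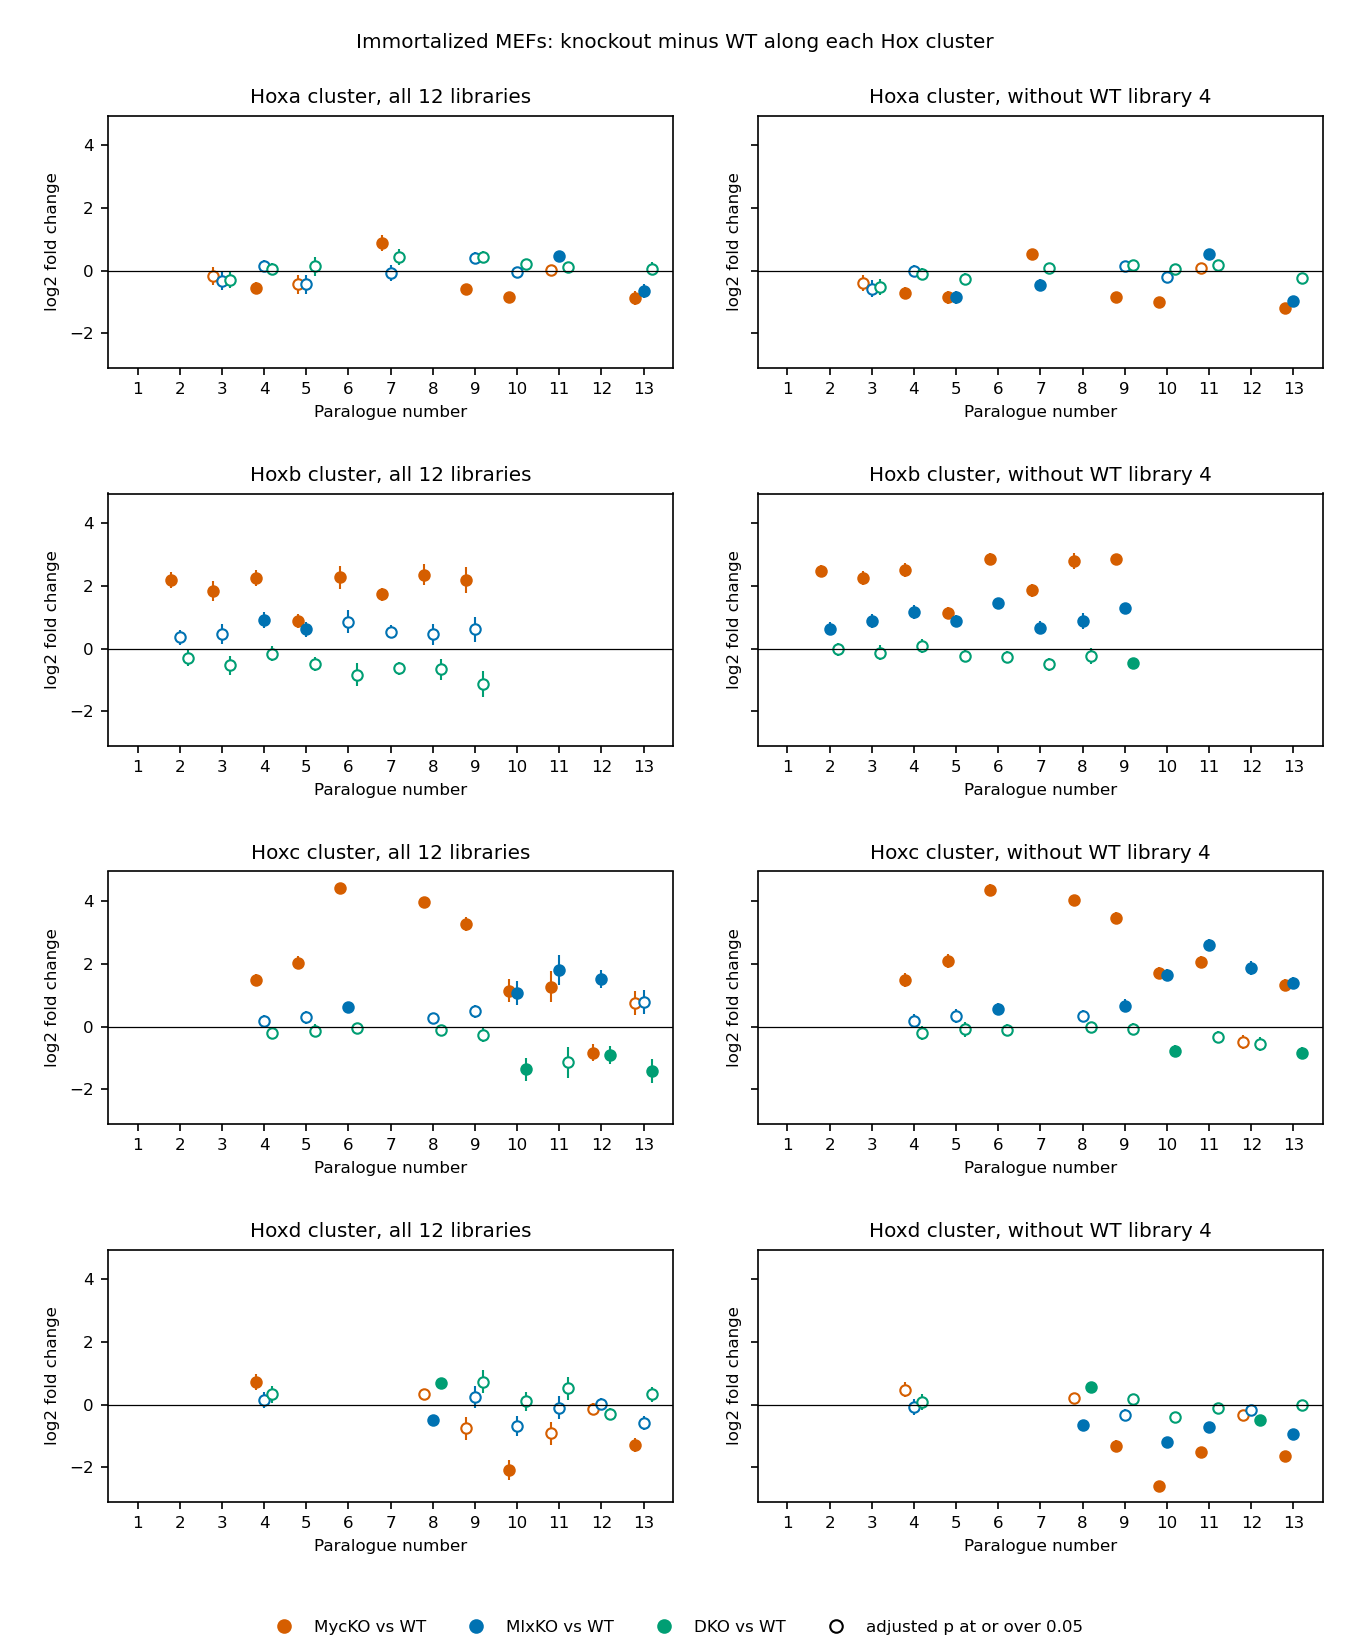
Log2 fold change of the tested Hox genes plotted in immortalized MEFs, knockout minus WT (y axis, on log2(CPM + 1), bars are SE), against paralogue number (x axis), with a row per cluster, all 12 libraries on the left and the fit without WT library 4 on the right. MycKO points of Hoxb and of Hoxc4 to Hoxc9 lie high in both columns, with Hoxc6 at 4.42 and 4.37, whereas more MlxKO points are filled (passed an adjusted p of 0.05) on the right than on the left.

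The immortalized MlxKO result depended on WT library 4. Of 33 tested Hox genes 7 rose (21.2%), where 19.1% of all genes rose, and 2 fell (6.06%), where 19.9% of all genes fell. Without the library 15 rose (45.5%), where 23.1% of all genes rose, and 7 fell (21.2%), where 23.8% of all genes fell. Without the 6 genes that entered through MycKO the counts of 27 were 6 rises (22.2%) and 2 falls (7.41%), or 13 (48.1%) and 7 (25.9%) without library 4. The 13 include Hoxb2, Hoxb3 and Hoxb7, which entered the fit without library 4 through MycKO. The 7 and 2 first called were called again, and the additions were 6 Hoxb genes, Hoxc9 and Hoxc13 among the rises and Hoxa5, Hoxa7, Hoxd10, Hoxd11 and Hoxd13 among the falls. With library totals in place of the deposited scaling the split was 10 rises and no fall, with edgeR 4 and 4 and with DESeq2 5 and 4.

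Hoxc11, a lumbosacral and hindlimb gene, was at 0.703, 0.888 and 8.40 CPM in WT libraries 2, 3 and 4 and at 7.50, 12.3 and 10.3 CPM in MlxKO libraries. Its log2 change was 1.80 (SE 0.487, adjusted p = 0.013, limma), or 2.59 (adjusted p = 2.45e-07, limma) without library 4, and library 4 fell inside the MlxKO range. Hoxc12 was at 1.17, 2.77 and 4.87 CPM in WT and at 8.85, 10.0 and 9.39 CPM in MlxKO libraries, with a log2 change of 1.52, or 1.86 without library 4, and there no WT library reached the MlxKO values. Hoxc10 was at 1.87, 1.17 and 7.18 CPM in WT and at 7.11, 7.56 and 5.77 CPM in MlxKO libraries, and rose by 1.07, or by 1.64 without library 4. The distal limb genes were mixed. Hoxa11 rose by 0.46, or by 0.54 without library 4, and Hoxd12 passed in neither fit (log2 change 0.01 and -0.19). Hoxa13 was at 31.4, 24 and 23.3 CPM in MlxKO libraries and fell by 0.66, or by 0.97 without library 4. Hoxd13 was at 276.1, 226.1 and 232.2 CPM, a log2 change of -0.58 that did not pass with all libraries (adjusted p = 0.0611, limma) and passed at -0.93 without library 4, as did Hoxd10 (-0.69 and -1.19) and Hoxd11 (-0.11 and -0.72). Hoxd8, a trunk gene, was at 19.6, 27.4 and 17.3 CPM in WT and at 13.4, 14.4 and 16.1 CPM in MlxKO libraries and fell by 0.50, or by 0.64 without library 4.

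Few Hox genes were called in immortalized DKO cells. Of 33 tested genes 2 rose, where 10.4% of all genes rose, and 3 fell, where 8.51% of all genes fell. Without WT library 4, 1 rose, where 12% of all genes rose, and 4 fell, where 10.1% of all genes fell. Hoxd8 rose in both fits, from the WT values above to 34.1, 35.7 and 33.9 CPM, by 0.69 with all libraries and 0.55 without library 4.

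With all libraries the 3 falls in DKO cells were Hoxc10, Hoxc12 and Hoxc13. Hoxc13 was at 1.70, 3.05 and 10.3 CPM in WT libraries 2, 3 and 4 and at 0.91, 1.07 and 0.607 CPM in DKO libraries, and fell by 1.43, or by 0.83 without library 4. Hoxc10 was at 0.227, 0.509 and 0.607 CPM in DKO libraries and fell by 1.37, or by 0.79 without library 4. Hoxc12, at 1.25, 0.848 and 0.773 CPM, fell by 0.90 with all libraries only (log2 change -0.56 without library 4), and Hoxb9 and Hoxd12 fell by 0.46 and 0.50 without library 4 only. With WT library 3 left out 11 Hox genes were called, with DKO library 13 or 15 left out 1, and with edgeR and DESeq2 on the recovered reads 9 and 12. In a fit of WT and DKO alone, limma called 0 Hox genes, with 6 at an unadjusted p under 0.05.

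In immortalized cells the interaction was negative for the tested Hoxb and Hoxc genes. With all libraries it was positive for 6 of the 33 tested Hox genes, where 23.7% of all genes were positive, and negative for 17 (51.5%), where 23.8% were negative. Without WT library 4 it was positive for 10, where 28.1% of all genes were positive, and negative for 17, where 28.7% were negative, and the same 17 genes were negative in both fits. They were the 8 tested Hoxb genes and all 9 Hoxc genes, and 5 of the Hoxc genes, Hoxc4, Hoxc5, Hoxc6, Hoxc8 and Hoxc9, entered through MycKO. Without the 6 genes of that kind 12 of 27 were negative (44.4%) and 6 positive (22.2%), or 12 and 10 (37%) without library 4. The negative ones without library 4 include Hoxb2, Hoxb3 and Hoxb7, which entered that fit through MycKO. The 12 ran from -1.58 for Hoxc12 to -4.21 for Hoxc11, or from -1.93 to -5.0 without library 4. With all libraries the positive ones were Hoxa10, Hoxa13, Hoxd8, Hoxd10, Hoxd11 and Hoxd13, from 0.85 for Hoxd8 to 2.88 for Hoxd10, or from 0.98 to 3.38 for the same pair without library 4. Hoxd12 passed in neither fit, at -0.18 and 0.03. For Hoxc6 the MycKO level of 24.9 CPM exceeded the WT level and the DKO level of 0.17 CPM did not. For Hoxd13 the MycKO and MlxKO levels of 148.6 and 244.8 CPM were below the DKO level of 457.5 CPM.

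**Figure D5:**
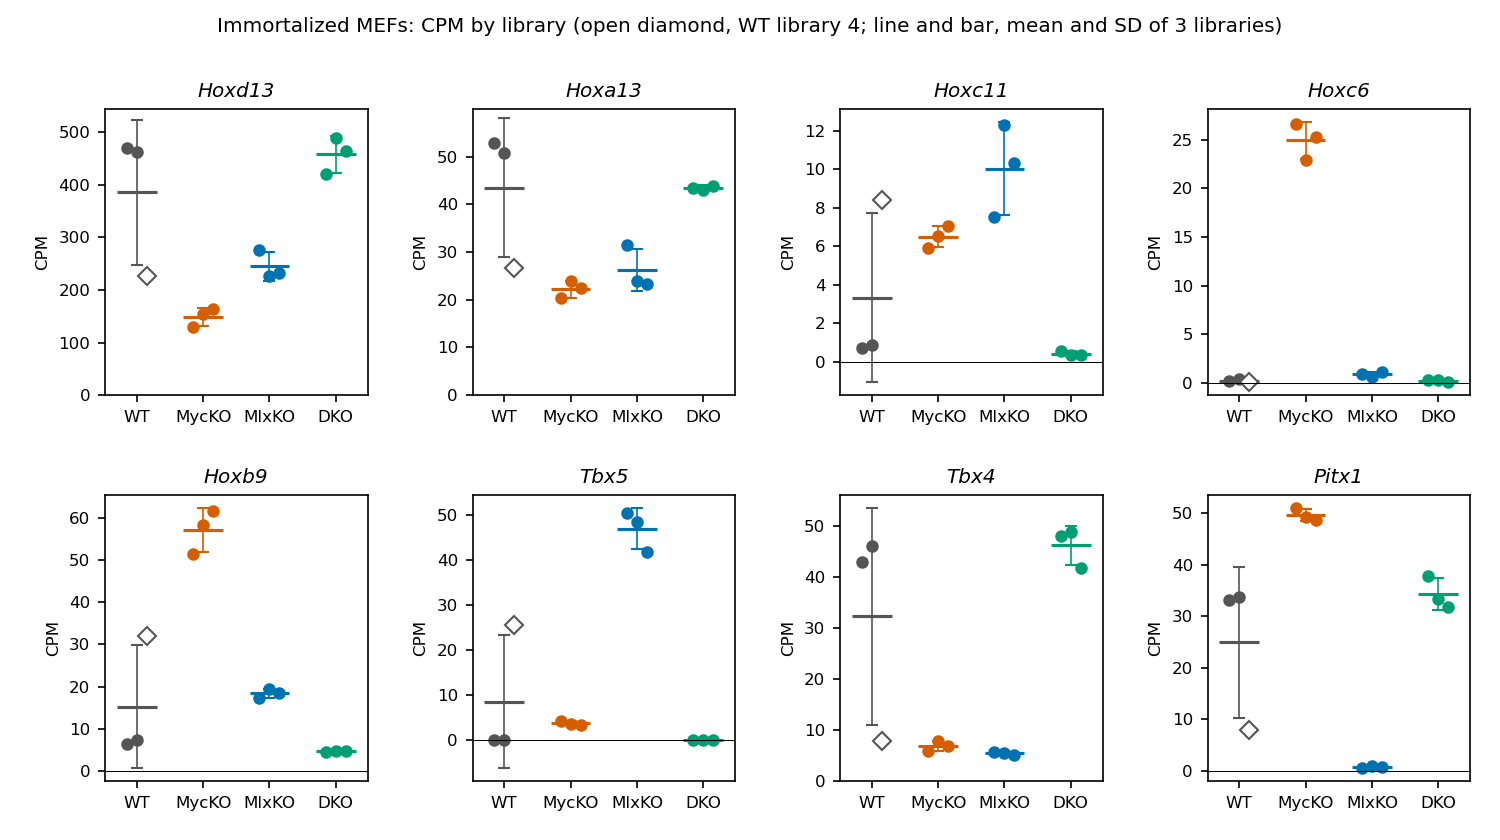
CPM (y axis, linear) of 5 Hox genes and 3 limb genes in each immortalized library by genotype, with points for libraries, a line for the mean and a bar for the SD of 3 libraries. WT library 4 (open diamond) lies away from the other WT points for all genes shown except Hoxc6, and only the MycKO points are high for Hoxc6.

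Limb identity genes also differed between the immortalized lines. Tbx5 was at 50.4, 48.4 and 41.7 CPM in MlxKO libraries and at 0.0569, 0.0566 and 0 CPM in DKO libraries, and it averaged 3.84 CPM in MycKO cells. Tbx4 was at 5.81, 5.56 and 5.05 CPM in MlxKO and at 48.0, 48.8 and 41.9 CPM in DKO libraries. Pitx1 was at 0.532, 1.00 and 0.765 CPM in MlxKO and averaged 34.3 CPM in DKO and 49.7 CPM in MycKO cells. MlxKO cells thus had high Tbx5 with low Tbx4 and Pitx1, and WT libraries 2 and 3 and the DKO libraries had the opposite. Hoxc10 to Hoxc13 together averaged 33.8 CPM in MlxKO, 22.1 in MycKO and 2.68 CPM in DKO cells. In WT libraries 2, 3 and 4 they summed to 5.45, 7.88 and 30.7 CPM. Between MlxKO and DKO cells these Hoxc genes thus ran opposite to Tbx4 and Pitx1. Evx2 averaged 28.2 CPM in WT, 7.16 in MycKO, 14.7 in MlxKO and 30.3 CPM in DKO cells and fell in MycKO cells. In MlxKO cells its log2 change of -0.75 did not pass with all libraries (adjusted p = 0.0918, limma) and passed at -1.25 without WT library 4. Tbx5 did not pass in MycKO cells with all libraries (log2 change 0.62) and passed at 2.16 without library 4.

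Of 15 limb and trunk genes tested in immortalized cells, 8 rose and 5 fell in MycKO cells, 6 rose and 3 fell in MlxKO cells and 2 rose and 3 fell in DKO cells, or 9 and 4, 8 and 3 and 1 and 4 without WT library 4. With all libraries these rises were 53.3%, 40% and 13.3% of the list, beside 24.4%, 19.1% and 10.4% of all genes, and the falls 33.3%, 20% and 20%, beside 23.5%, 19.9% and 8.51%. Emx2, a homeobox gene of the shoulder and hip girdle, averaged 3.92 CPM in WT, 19.4 in MycKO, 11.8 in MlxKO and 2.38 CPM in DKO cells. Of the 9 TALE partners, 5 rose (55.6%) and 2 fell (22.2%) in MycKO cells, none passed in MlxKO cells and 1 rose and 1 fell (11.1% each) in DKO cells, beside the same percents of all genes. Without library 4 the TALE counts by limma were 4 and 2, 0 and 1 and 2 and 2. Meis1 averaged 5.90 CPM in WT and 16.3 CPM in MycKO cells. Of 24 Polycomb and Trithorax genes, 5 rose (20.8%) and 7 fell (29.2%) in MycKO, 6 rose (25%) and 5 fell (20.8%) in MlxKO and 1 rose (4.17%) and 2 fell (8.33%) in DKO cells, shares to be read beside the same percents of all genes, and without library 4 the counts were 7 and 7, 6 and 5 and 1 and 3. Of 13 retinoic acid genes, 7 rose (53.8%) and 1 fell (7.69%) in MycKO, 5 rose (38.5%) and 1 fell (7.69%) in MlxKO and 3 rose (23.1%) and 1 fell (7.69%) in DKO cells, beside the same percents of all genes. Without library 4 the retinoic acid counts were 6 and 1, 7 and 2 and 3 and 0. Hotair, an RNA transcribed within the Hoxc cluster, averaged 0.773 CPM in WT and passed in no comparison with all libraries, and without library 4 it rose in MlxKO cells by 0.59.

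Markers of fibroblasts and of other cells differed between the immortalized groups as well. The fibroblast markers summed to 26360, 27020 and 19260 CPM in WT libraries 2, 3 and 4. They summed to between 13570 and 17540 CPM in MycKO, 14910 and 18290 in MlxKO and 21450 and 26330 CPM in DKO libraries. The summed macrophage markers lay between 5.74 and 11.9 CPM, with Adgre1 at 0 in all 12 libraries, and the muscle markers summed to at most 0.703 CPM. Endothelial markers summed to between 14.4 and 19.1 CPM in MycKO and between 3.10 and 9.0 CPM in the other libraries, with Tie1 and Emcn at 0 and Kdr, a receptor of endothelial cells, higher in MycKO cells by 2.21. Neural and neural crest markers summed to between 13.1 and 15.2 CPM in MycKO, 9.82 and 13.1 in MlxKO and 3.70 and 4.30 CPM in DKO libraries and to 4.45, 6.05 and 18.9 CPM in WT libraries 2, 3 and 4, with Sox10 at 0. Epithelial markers summed to at most 5.97 CPM. Cartilage markers summed to between 24.3 and 29.5 CPM in MycKO libraries and between 116.2 and 183.1 CPM in the others. Xist averaged 1412, 468.2, 252.5 and 1026 CPM in WT, MycKO, MlxKO and DKO cells, and Ddx3y 39.2, 19.9, 47.8 and 1.68 CPM. Without WT library 4 the WT means were 1844 CPM for Xist and 5.58 CPM for Ddx3y. In that fit Ddx3y rose by 1.68 in MycKO and by 2.89 in MlxKO cells and fell by 1.29 in DKO cells. The part of these markers in the Hox results was not tested, and a change in the embryos or cells that make up a line cannot be told apart from a change within the cells.

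Calls were also counted by whether CACGTG stood upstream, with no test of the difference. In primary MycKO cells 3 of the 8 tested rose and 1 fell, and of the 27 tested without it 14 rose and 5 fell. In primary DKO cells 6 of 8 rose and none fell, beside 18 rises and 4 falls among 27. In immortalized MycKO cells 4 of 8 rose and 2 fell, beside 13 rises and 5 falls among 25, or 5 and 2 beside 12 and 7 without WT library 4. Among all genes 20.4% rose and 21.9% fell in primary MycKO and 24% and 25.5% in primary DKO cells. For immortalized MycKO the shares were 24.4% and 23.5%, or 27.3% and 26.7% without library 4. The median log2 change with and without CACGTG was 0.36 and 0.44 in primary MycKO, 0.68 and 0.54 in primary DKO and 0.80 and 0.71 in immortalized MycKO cells with all libraries. As single genes, Hoxc13, with 2 copies, and Hoxd13, with none, changed by 1.31 and -1.69 in primary MycKO cells, both past the test. This pair was picked for display and does not stand for the groups.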

How the data were processed

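Poly-A selected, directional RNA libraries were made from primary and immortalized MEFs of the 4 genotypes, 3 per group. The authors mapped reads to GRCm39 with CLC Genomics Workbench version 22 and deposited a table for each stage of normalized signal, CPM per gene and library. Library sums ran from 915690.7 to 1077213 CPM, so the libraries had been scaled against each other, by a method not given in the sources used here, as was the strand setting of counting. Every value was a whole multiple of what 1 read was worth (100% within 0.01 read), and reads were recovered for read totals and count models.

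Genes that reached 1 CPM in 3 or more of the 12 libraries were fitted per table with limma 3.58.1 in R 4.3.3 (empirical Bayes with trend) on log2(CPM + 1), all 4 genotypes sharing the estimate of spread, two-sided, with Benjamini-Hochberg adjustment over all genes tested and a threshold of 0.05. The fit was tested on simulated data. Alternatives were DESeq2 1.42.0 and edgeR 4.0.16 count models of the recovered reads, other pseudocounts, filters and scalings, and leaving out each library. No test was made between the tables. Library numbers are those of the table columns. Groups follow the labels.

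Values of every library are given for the 2 members with the largest rise and fall past the threshold in each comparison with WT and for the highest member of each cluster. Other members or genes shown by library were chosen after their values were seen. The Hox genes and the other gene lists were chosen with earlier results of these data known. Promoter and homeobox letters were read from GRCm39 with GENCODE M39, which held 41181 of the 41710 gene identifiers. Of the sequences of Hoxd3 and Hoxd4, 36.9% and 46.5% of 50-base stretches also occur in other gene models, so their counts are uncertain. CPM carries the counting error of 15986856 to 20966163 reads per library. A few named items are not reported here and are left out of the plots by gene, though counts and sums over all Hox genes include them.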

Additional observations from a re-analysis of the deposited data

Results flagged for a closer look

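For the Hox genes below, the DKO minus MycKO change differed from the MlxKO minus WT change, by the test of the interaction in limma on log2(CPM + 1). The knockout lines came from different pools, so a difference of genotype and a difference of pool cannot be told apart here. In primary cells the interaction was 0.92 for Hoxa3 (adjusted p = 0.00398), 0.84 for Hoxa5 (adjusted p = 0.0059), 0.39 for Hoxa10 (adjusted p = 0.0468) and 0.97 for Hoxc11 (adjusted p = 0.00362). For Hoxc12, which passed the filter on low values only with the DKO libraries, the value of 0.78 is a description. The interaction was -0.75 for Hoxd13 (adjusted p = 0.00709).

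In immortalized cells the interaction was negative for all tested Hoxb and Hoxc genes. It was -2.85 for Hoxb2, -2.85 for Hoxb3, -3.32 for Hoxb4, -1.98 for Hoxb5, -3.97 for Hoxb6, -2.90 for Hoxb7, -3.47 for Hoxb8 and -3.94 for Hoxb9. In Hoxc it was -1.86 for Hoxc4, -2.46 for Hoxc5, -5.09 for Hoxc6, -4.33 for Hoxc8, -4.02 for Hoxc9, -3.57 for Hoxc10, -4.21 for Hoxc11, -1.58 for Hoxc12 and -2.95 for Hoxc13. Hoxc4, Hoxc5, Hoxc6, Hoxc8 and Hoxc9 passed the filter on low values only with the MycKO libraries and so were bound to be high there, and their values are a description. The positive values were 1.10 for Hoxa10, 1.60 for Hoxa13, 0.85 for Hoxd8, 2.88 for Hoxd10, 1.54 for Hoxd11 and 2.20 for Hoxd13. For the genes that did not enter through MycKO, the limma adjusted p-values ran from 1.72e-05 (Hoxb7) to 0.0283 (Hoxd11). All of these passed without WT library 4 as well, where Hoxb2, Hoxb3 and Hoxb7 passed the filter only with the MycKO libraries.

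For the 9 genes below every library of the named knockout lay on one side of WT in primary cells and on the opposite side in immortalized cells. The share of all genes with this pattern is not given, so the genes are a list and their number is not a result. This difference between stages was not tested, and with all libraries only Hoxc10 and Hoxc13, in DKO cells, passed the test against WT at both stages. The other 7 passed at 1 stage, the MlxKO pair in immortalized and the DKO genes in primary cells. In MlxKO cells Hoxa11 changed by -0.11 in primary and 0.46 in immortalized cells, and Hoxb4 by -0.39 and 0.90. In DKO cells the primary and immortalized changes were 0.77 and -0.49 for Hoxb5, 0.58 and -0.63 for Hoxb7, 0.60 and -1.14 for Hoxb9, 0.61 and -0.20 for Hoxc4, 0.39 and -1.37 for Hoxc10, 1.09 and -1.14 for Hoxc11, and 0.99 and -1.43 for Hoxc13. Hoxc4 stood at 0.117, 0.222 and 0.183 CPM in immortalized WT libraries 2, 3 and 4, near the value of 3 reads, and entered that test through MycKO. Without WT library 4 the immortalized DKO changes were -0.46 for Hoxb9, -0.79 for Hoxc10, -0.83 for Hoxc13 and -0.35 for Hoxc11, of which that of Hoxc11 did not pass (adjusted p = 0.211, limma).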

How the results depend on the processing

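In the comparisons with WT, no Hox gene went from a call in one direction to a call in the other in any alternative run. Changes that did not pass could change sign, as that of Hoxd12 in immortalized MlxKO cells did without WT library 4. The interaction was not followed gene by gene in this way. Leaving out 1 library at a time gave between 18 and 23 called Hox genes for primary MycKO, 0 and 4 for MlxKO, 26 and 30 for DKO and 4 and 6 for the interaction. In immortalized cells it gave 17 to 26 for MycKO, 2 to 22 for MlxKO, 1 to 11 for DKO and 19 to 27 for the interaction. The 26, 22 and 27 came without WT library 4. For MlxKO, 2 came without MlxKO library 6, 3 without WT library 2 and 4 without MlxKO library 7, and for DKO 11 came without WT library 3, 1 without DKO library 13 or 15 and 2 without DKO library 14. A required log2 change of 1 or more in size left 4 for primary MycKO, 0 for MlxKO, 10 for DKO and 0 for the interaction, and 3 for immortalized MlxKO and 2 for DKO. With no filter limma called 0 for primary MlxKO, with 9 at an unadjusted p under 0.05, and 2 for immortalized DKO. A mean of at least 5 CPM, which leaves fewer genes to test, gave 2 for the primary interaction and 8, 5, 2 and 10 for immortalized MycKO, MlxKO, DKO and interaction. With only the compared groups, limma called 3 for immortalized MlxKO and 0 for DKO, the latter with 6 at an unadjusted p under 0.05. For immortalized DKO edgeR called 9 and DESeq2 12. Scaling by library totals moved the median of all genes by 0.15 for immortalized MlxKO, by -0.16 for the immortalized interaction and by -0.10 for primary MycKO. The immortalized MlxKO split of 7 rises and 2 falls then became 10 and 0, and that of primary MycKO 13 and 6. Beyond what these settings show by construction, the cause was not tested. No paired analysis was possible because nothing links a library number of the tables to a replicate number in GEO's labels.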
